A study of Mus musculus with 8 samples.

Results

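The clustered replication-dependent histone genes were compared in both iTreg subsets, Nrp-1+ and Nrp-1-. Every gene whose symbol begins with Hist1h, Hist2h, Hist3h or Hist4h was taken, which gave 68 of the 23361 genes in the table: 6 of class H1, 18 of H2a, 19 of H2b, 12 of H3 and 13 of H4. Naive CD4+ T cells of WT mice carrying a Foxp3-RFP reporter, in which red fluorescence marks cells expressing Foxp3, had been cultured with anti-CD3/CD28 microbeads, IL-2 and TGF-β (at 50 U/ml and 2 ng/ml per the labels; the study's methods give IL-2 by weight instead), so both groups share genotype, reporter and treatment. Viable CD4+ Foxp3-RFP+ cells were then split by surface neuropilin-1 into the subsets, with 4 libraries of Nrp-1+ iTreg and 4 of Nrp-1- iTreg, labelled biological replicates 1 to 4. The labels name 3 days of culture in one field and day 5 in another. Per the methods, the mice were of the B6 strain and aged 7-8 weeks, and the naive cells came from the spleen. The cells are a cultured in vitro population, and nTreg libraries were not analysed here.

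Most histone protein is made in S phase, when newly copied DNA has to be packed into nucleosomes. The genes that supply it lie in clusters, mostly have no introns, and give mRNAs that end in a conserved stem-loop in place of a polyA tail. The stem-loop is bound by SLBP, and the mRNAs are cleaved, used and destroyed together with DNA synthesis. Some of these genes can also give longer, polyadenylated transcripts that end at a polyA signal beyond the stem-loop. Replication-independent variants such as H2A.Z and H3.3 come from ordinary polyadenylated genes elsewhere in the genome. The study's methods name an initial polyA+ isolation whereas the labels name another mRNA kit, so the values below are those of histone RNA captured by such a protocol, and how much stem-loop mRNA it lost was not tested.

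The sort was visible in the RNA: Nrp1 measured 21.5 ± 0.709 FPKM (SD, n = 4 here and below) in the Nrp-1+ libraries and 4.95 ± 0.262 in the Nrp-1- libraries. FPKM is the number of fragments scaled for the length of the gene model and for the mapped fragments of the library. The relative depth of the libraries, read from the steps of low FPKM values and set to 1 for Nrp-1+ iTreg replicate 1, was 0.994 to 1.22 in Nrp-1+ and 0.810 to 1.24 in Nrp-1- libraries. Of 13 markers of other cells, 11 were under a mean of 1 FPKM, among them Cd8a, Ms4a1, Lyz2 and Csf1r. The exceptions were Cd8b1 (7.86 ± 0.741 and 10.0 ± 0.935 FPKM in Nrp-1+ and Nrp-1- iTreg) and Hba-a1 (6.10 ± 0.958 and 2.52 ± 0.585), the sum of all 13 was 13.6 to 17.0 and 12.4 to 14.5 FPKM, and their part in the results was not tested. Of 8 T cell and Treg markers, 7 were above 100 FPKM in both groups. The exception was Ikzf2, which encodes Helios, at 2.56 ± 0.0615 and 1.86 ± 0.0507 FPKM. Among the 8, Foxp3, Il2ra and Ikzf2 were higher and Cd3d and Ctla4 lower in Nrp-1+ iTreg, and Cd3e, Cd4 and Tnfrsf18 did not pass the test described below.

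The 68 genes lay in 4 clusters of the mouse genome. In GENCODE M21 on build GRCm38, 54 genes lay between 21715763 and 23934851 on chromosome 13, 10 between 96219865 and 96270132 on chromosome 3, 3 between 58948920 and 58956830 on chromosome 11, and Hist4h4 on chromosome 6. Among these, 45 annotated transcripts held a match to the histone stem-loop consensus after the stop codon. The commonest form, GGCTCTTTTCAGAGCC, was found in 25 genes of classes H1, H2a, H2b and H3. The form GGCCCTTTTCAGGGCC was found in 7 genes, all of class H4. The transcript ended within 100 bases of the stem-loop in 22 genes and ran 100 bases or more past it in 23. In 15 genes the model held the coding sequence only, and in 8 it had other sequence but no stem-loop.

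The stem-loops and polyA signals of the 10 genes whose level differed between the groups are shown because they set which kind of mRNA the GENCODE M21 transcript of each gene describes, which need not be the model behind the FPKM. The stem-loop is in capitals with 5 flanking bases on each side, first for the 5 genes that were higher in Nrp-1+ iTreg and then for the 3 lower genes that have one.
Hist1h2bj: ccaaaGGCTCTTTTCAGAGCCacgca
Hist1h2bm: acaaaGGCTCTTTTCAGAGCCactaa
Hist1h3c: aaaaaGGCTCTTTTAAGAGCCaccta
Hist1h2ae: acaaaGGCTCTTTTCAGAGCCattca
Hist1h4i: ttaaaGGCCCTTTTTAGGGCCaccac
Hist1h1c: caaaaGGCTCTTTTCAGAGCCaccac
Hist3h2a: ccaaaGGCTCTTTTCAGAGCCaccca
Hist3h2ba: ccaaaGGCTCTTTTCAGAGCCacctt
These windows lie at chr13:22043633-22043658 (Hist1h2bj, plus strand), chr13:21722501-21722526 (Hist1h2bm, plus), chr13:23745042-23745067 (Hist1h3c, minus), chr13:23570663-23570688 (Hist1h2ae, minus) and chr13:22040961-22040986 (Hist1h4i, minus). Those of the lower genes lie at chr13:23739507-23739532 (Hist1h1c), chr11:58955167-58955192 (Hist3h2a) and chr11:58949344-58949369 (Hist3h2ba), all on the plus strand. The 3 lower genes and 3 of the 5 higher genes (Hist1h2bj, Hist1h2bm and Hist1h2ae) have the same 16-base form, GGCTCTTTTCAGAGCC, whereas Hist1h3c has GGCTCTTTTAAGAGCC and Hist1h4i has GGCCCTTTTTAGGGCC.

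The annotated ends after the stem-loop differed more. The transcripts of Hist1h2bj, Hist1h2bm and Hist1h3c ended 23, 46 and 74 bases after it, with no AATAAA or ATTAAA in their last 40 bases. Those of Hist1h2ae and Hist1h4i ran 151 and 330 bases past it, those of Hist3h2ba, Hist1h1c and Hist3h2a 169, 840 and 1643 bases, and that of Hist2h2be held no stem-loop match. These 6 transcripts had a polyA signal, in capitals, at their end.
Hist1h2ae: ttctccAATAAAtgggtcaatttt
Hist1h4i: gtttacATTAAAagtattctatgc
Hist3h2ba: ggtattAATAAAtttggttcaatt
Hist1h1c: gcttctAATAAAaagcgtttagtt
Hist3h2a: atgcccAATAAAataagagtacgt
Hist2h2be: attattAATAAAgttaccgattag
They lie at chr13:23570527-23570550, chr13:22040639-22040662, chr11:58949501-58949524, chr13:23740336-23740359, chr11:58956791-58956814 and chr3:96223711-96223734. The transcript of Hist1h2bc, an H2B gene, had 2 exons, no stem-loop match and no polyA signal in its last 40 bases. So none of the 5 lower genes, and 3 of the 5 higher genes, had an annotated transcript that ends within 100 bases of the stem-loop. This grouping of genes was made after their values were seen, and no test was run on it.

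Histone RNA was low in all 8 libraries. The gene with the highest mean, Hist3h2ba, was at 10.9 FPKM, below the median of 14.6 FPKM over the 10467 genes tested, while the replication-independent H2afz was at 1198 ± 30.3 and 737 ± 27.8 FPKM in Nrp-1+ and Nrp-1- iTreg. Of the 68 genes, 11 were listed at 0 in every library, 40 had some value but a mean under 1 FPKM, and 17 reached the mean of 1 FPKM needed for the test. The genes nearest to that limit were Hist1h2ai at 1.04 inside it and Hist1h3a at 0.986 outside it. Hist1h2bj passed with a mean over 1 FPKM in Nrp-1+ iTreg alone and Hist1h2ai with one in Nrp-1- iTreg alone.

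The FPKM values of a gene moved in equal steps. The largest step common to its libraries was taken as 1 fragment, which gave whole fragment numbers for 55 genes with gaps of at most 0.00063 fragments. Where few libraries are above 0 the step may hold several fragments: that of Hist1h3b, with 2 such libraries, was 0.465 FPKM against 0.232 for Hist1h3d. A step is smaller the longer the gene model: at the depth of Nrp-1+ iTreg replicate 1, a fragment was worth 0.0202 FPKM for Hist2h2be, 0.0273 for Hist3h2a and 0.0359 for Hist1h1c. For Hist1h2bj and 6 other H2b genes it was worth 0.271 FPKM, and for 7 H4 genes 0.430 FPKM, although their GENCODE M21 transcripts differ in length. The authors' gene models therefore differ from GENCODE M21 for some genes: Hist1h4d, with 1138 annotated bases, had the same step as Hist1h4k, with 312, and the higher genes Hist1h2bj and Hist1h2bm, with 463 and 524, had the step of Hist1h2bl and Hist1h2bn, whose 381 bases are coding sequence only. The steps were not in proportion to annotated length: Hist1h4k, with 312 bases, had 0.430 FPKM and Hist2h2be, with 2620, had 0.0202. How length entered the authors' FPKM was not tested, and short models may weigh more in it than their length alone gives. Of the 17 genes tested, 11 had at most 30 fragments in any library. Over these 55 genes the libraries held 897 to 1281 fragments in Nrp-1+ iTreg and 901 to 1417 in Nrp-1- iTreg.

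Of the 17 histone genes tested, 5 were higher in Nrp-1+ iTreg at an adjusted p under 0.05 (limma on log2(FPKM + 1), Benjamini-Hochberg over 10467 genes), where 20.9% of all genes tested were higher. Another 5 were lower, where 20% of all genes were. The remaining 7 did not pass, and the median log2 difference of the 17 was 0.30, against -0.02 over all genes tested. That median depends on which genes enter: it was -0.33 over the 6 histone genes left with a filter at 5 FPKM and 0.087 without a filter, and it was 0.49 at a pseudocount of 0.1 and 0.14 without Nrp-1- iTreg replicate 1. The groups did not overlap for 7 of the 17 genes, where 39.5% of all genes did not overlap. Fold changes on this scale understate the change of low genes, which most histone genes are. In bulk RNA, fewer cells making a transcript and less of it per cell cannot be told apart.

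**Figure D1:**
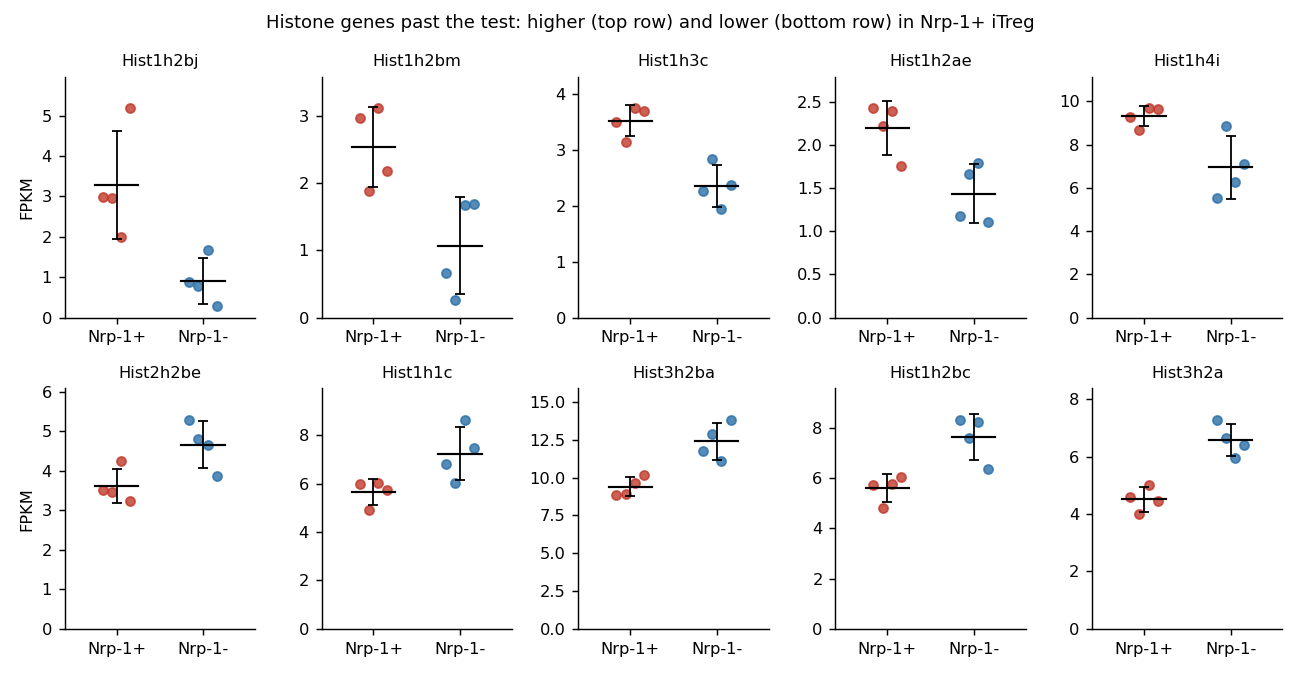
FPKM (vertical axis, from 0) of the 10 histone genes past the test in each Nrp-1+ (red) and Nrp-1- (blue) iTreg library, with the mean and SD of 4 libraries as lines and bars. The top row holds the 5 genes higher in Nrp-1+ iTreg, of which Hist1h2ae and Hist1h4i overlap between groups, and the bottom row the 5 lower genes, of which Hist2h2be overlaps.

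The largest increase was that of Hist1h2bj (chr13:22043214, plus strand), which encodes the core histone H2B. It was at 2.98, 2.97, 2.00 and 5.18 FPKM in Nrp-1+ iTreg replicates 1 to 4 and at 0.877, 0.776, 1.67 and 0.282 in Nrp-1- iTreg. Every Nrp-1+ library was above every Nrp-1- library, with replicate 4 the highest of its group. These values rest on 11, 11, 9 and 19 fragments against 4, 3, 5 and 1. The log2 difference was 1.17 (SE 0.27, limma adjusted p = 0.00879) and the ratio of the group means 3.64. The 95% interval ran from 0.56 to 1.78.

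Hist1h2bm (chr13:21722044), a second H2B gene, was at 2.98, 1.89, 3.12 and 2.18 FPKM in Nrp-1+ iTreg and at 0.658, 0.259, 1.67 and 1.69 in Nrp-1- iTreg, on 7 to 14 and 1 to 6 fragments. The groups did not overlap, by a margin of 1.69 against 1.89 FPKM. On the log2 scale it rose by 0.83 (SE 0.26, limma adjusted p = 0.0334). The call was lost without Nrp-1+ iTreg replicate 1, 3 or 4 or Nrp-1- iTreg replicate 1 or 2, with adjusted p from 0.0565 to 0.0846. It was also lost without a filter (0.0564), with quantile normalization (0.0549) and with the GC and length correction, alone (0.0517) or with the block (0.0518).

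Hist1h3c (chr13:23744973, minus strand) was the only H3 gene tested, and its product is the core histone H3. It was at 3.50, 3.13, 3.74 and 3.70 FPKM in Nrp-1+ iTreg and at 2.26, 2.84, 1.94 and 2.37 in Nrp-1- iTreg. The groups did not overlap and each was tight, on 18 to 26 and 9 to 17 fragments. Its increase was 0.43 on the log2 scale (SE 0.09, limma adjusted p = 0.00463), and the mean was 49.5% higher. It passed with each of the 8 libraries left out, with adjusted p up to 0.0157, and not with the replicate block together with a GC content and length correction (0.0561).

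Hist1h4i (chr13:22040636, minus strand), the highest of the 13 clustered genes for the core histone H4, was at 9.30, 8.67, 9.67 and 9.64 FPKM in Nrp-1+ iTreg and at 5.52, 8.87, 6.28 and 7.10 in Nrp-1- iTreg. Nrp-1- replicate 2 lay above the lowest Nrp-1+ library, so the groups overlapped. It was higher by 0.39 on the log2 scale (SE 0.12, limma adjusted p = 0.0259), on 60 to 81 and 35 to 64 fragments. With the replicate number as a block the adjusted p was 0.0581, or 0.0684 with the GC correction as well, and it was 0.0519 to 0.0687 without Nrp-1+ iTreg replicate 1, 3 or 4 or Nrp-1- iTreg replicate 1 or 3.

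Hist1h2ae (chr13:23570517, minus strand), a gene of the core histone H2A, was at 2.43, 2.22, 2.39 and 1.76 FPKM in Nrp-1+ iTreg and at 1.18, 1.67, 1.80 and 1.11 in Nrp-1- iTreg. Nrp-1+ replicate 4 lay just below Nrp-1- replicate 3, and all other libraries were separated. This gene rose by 0.40 on the log2 scale (SE 0.12, limma adjusted p = 0.0265). It did not pass without Nrp-1+ iTreg replicate 1, 2 or 3 or Nrp-1- iTreg replicate 1 or 4, with adjusted p from 0.0574 to 0.0665, or with quantile normalization (0.0591).

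The 5 lower genes were among the 7 members with the highest mean FPKM. Hist3h2a (chr11:58954685), an H2A gene of the small chromosome 11 cluster, was at 4.58, 3.99, 5.02 and 4.44 FPKM in Nrp-1+ iTreg and at 7.28, 6.63, 5.96 and 6.41 in Nrp-1- iTreg. Each Nrp-1- library was above each Nrp-1+ library. It was counted on 147 to 224 and 177 to 330 fragments, more than any higher gene. The log2 difference was -0.46 (SE 0.07, limma adjusted p = 0.00129), which is a mean 31.4% lower, and it passed under all 18 alternatives fitted.

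Hist3h2ba (chr11:58948920), the H2B gene of the same cluster, was at 8.85, 8.93, 9.67 and 10.2 FPKM in Nrp-1+ iTreg and at 11.8, 12.9, 11.1 and 13.8 in Nrp-1- iTreg. The groups did not overlap. Its log2 difference was -0.36 (SE 0.07, limma adjusted p = 0.00434, and 0.0593 with the replicate block and the GC correction). Hist3h2bb-ps, annotated as a processed pseudogene, is the third gene of that cluster and had 0 to 3 fragments in a library. The chromosome 11 cluster summed to 14.0 ± 0.872 FPKM in Nrp-1+ iTreg and 19.2 ± 1.09 in Nrp-1- iTreg.

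Hist1h2bc (chr13:23684199), a further H2B gene, was at 5.74, 4.79, 5.78 and 6.05 FPKM in Nrp-1+ iTreg and at 8.31, 7.60, 8.23 and 6.36 in Nrp-1- iTreg. The groups came close at 6.05 and 6.36 FPKM but did not overlap. The log2 difference was -0.39 (SE 0.09, limma adjusted p = 0.00987, and 0.0565 with the replicate block and the GC correction). Its head-to-head neighbour, Hist1h2ac, whose start lies 250 bases away, had at most 5 fragments in a library.

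Hist1h1c (chr13:23738808), the highest of the 6 clustered genes for the linker histone H1, was at 5.99, 4.89, 6.01 and 5.74 FPKM in Nrp-1+ iTreg and at 6.82, 6.02, 8.63 and 7.47 in Nrp-1- iTreg. The highest Nrp-1+ and lowest Nrp-1- libraries were at 6.01 and 6.02 FPKM. The log2 difference was -0.30 (SE 0.10, limma adjusted p = 0.0425). The call rested on most libraries: it was lost when any single library other than Nrp-1- iTreg replicate 2 was left out (adjusted p 0.0602 to 0.103), and in the fit without a filter.

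Hist2h2be (chr3:96221119), an H2B gene on chromosome 3, was at 3.51, 3.48, 4.25 and 3.25 FPKM in Nrp-1+ iTreg and at 5.29, 4.81, 4.66 and 3.87 in Nrp-1- iTreg. Nrp-1- replicate 4 lay below Nrp-1+ replicate 3, and otherwise the groups were apart. The log2 difference was -0.29 (SE 0.09, limma adjusted p = 0.0361), on 160 to 256 and 184 to 324 fragments. It was lost without Nrp-1+ iTreg replicate 1, 2 or 4 or Nrp-1- iTreg replicate 1, 2 or 3, with adjusted p from 0.0746 to 0.0889, and without a filter.

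**Figure D2:**
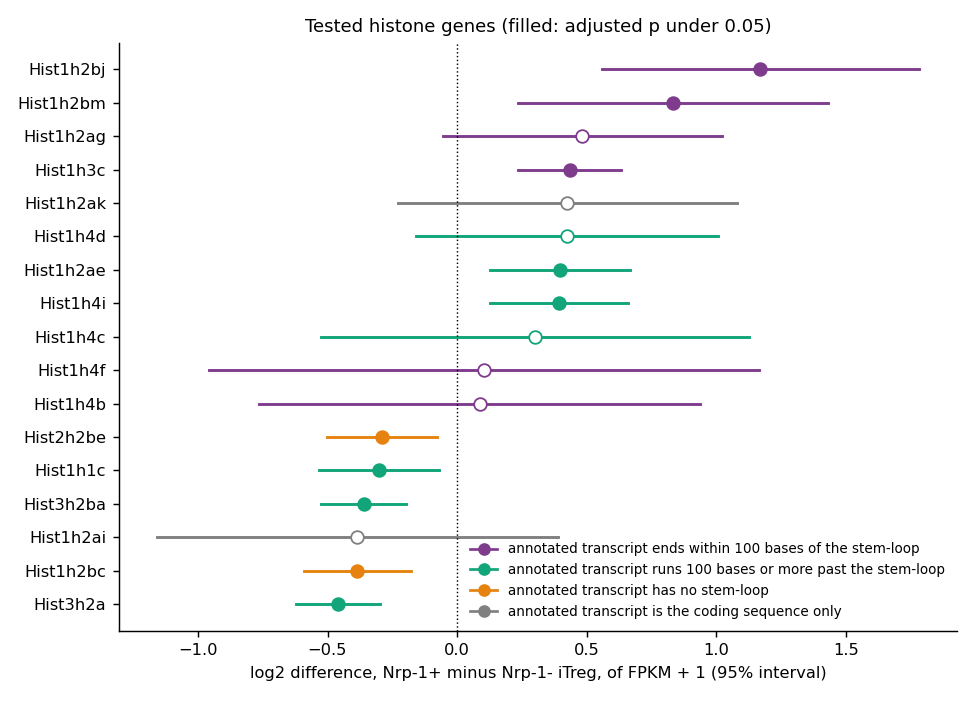
Log2 difference (horizontal axis, Nrp-1+ minus Nrp-1- iTreg, of FPKM + 1) of the 17 histone genes tested, with 95% intervals, filled where the adjusted p was under 0.05 and coloured by the end of the GENCODE M21 transcript. Hist1h2bj, at 1.17, has a wide interval, and the 5 lower genes sit between -0.46 and -0.29 with narrow ones; none of these 5 has the colour of transcripts ending at the stem-loop.

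The 7 genes that did not pass had wide intervals. Hist1h4d, the second H4 gene by level, was at 8.59, 9.41, 5.30 and 5.62 FPKM in Nrp-1+ iTreg and at 7.30, 4.10, 3.18 and 6.26 in Nrp-1- iTreg. Its groups overlapped and the log2 difference was 0.42, with a 95% interval from -0.16 to 1.00. Hist1h4f and Hist1h4b had log2 differences of 0.11 and 0.09, with intervals from -0.96 to 1.17 and from -0.76 to 0.94, so the interval of Hist1h4f holds a 2-fold increase. Hist1h4f was between 0 and 4.51 FPKM in the Nrp-1- libraries, and between 1.06 and 1.73 in the Nrp-1+ libraries, so its mean FPKM was lower in Nrp-1+ iTreg (1.45 ± 0.329 against 1.75 ± 1.98) although its log2 difference was positive.

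Among H2A genes, Hist1h2ag and Hist1h2ak had log2 differences of 0.48 (limma adjusted p = 0.136) and 0.42 (adjusted p = 0.267). Without Nrp-1- iTreg replicate 2, Hist1h2ag passed at an adjusted p of 0.0266, and Hist1h2ak passed at 0.0442 with the replicate block and the GC correction (log2 difference 0.67). Hist1h2ai, with a log2 difference of -0.38, was at 2.30 FPKM in Nrp-1+ iTreg replicate 3 and at 0.253 to 0.511 in the other Nrp-1+ libraries, and passed as lower at 0.0387 without that library. It rests on 1 to 11 fragments, and 9.88% of the 50-base windows of its transcript were found in no other gene.

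The 40 genes under the limit were fitted with all genes that had any value, where 14.1% of 16289 genes were higher and 11.7% lower in Nrp-1+ iTreg at an adjusted p under 0.05. Of the 40, 2 were higher and 1 was lower. Hist1h1a, an H1 gene, was at 0.536, 0.889, 0.514 and 0.719 FPKM in Nrp-1+ iTreg and at 0.145, 0.256, 0.331 and 0.279 in Nrp-1- iTreg, on 6 to 10 and 2 to 3 fragments, with no overlap (log2 difference 0.41, limma adjusted p = 0.00777). Hist1h3e was at 0.925 to 1.34 and 0.484 to 0.665 FPKM, on 4 to 7 and 2 to 3 fragments, also with no overlap (0.37, adjusted p = 0.0077). The lowest Nrp-1+ and the highest Nrp-1- library were 3 fragments apart for Hist1h1a and 1 fragment apart for Hist1h3e.

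The lower gene was Hist2h3c1, an H3 gene on chromosome 3 whose transcript runs 1167 bases past its stem-loop to a polyA signal. It is named after its values were seen. It had 16, 5, 11 and 10 fragments in Nrp-1+ iTreg and 38, 25, 15 and 19 in Nrp-1- iTreg (log2 difference -0.38, limma adjusted p = 0.0183). No 50-base window of its GENCODE M21 transcript was unique to it, and whether its reads were shared with other genes was not tested.

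Other genes named by level did not pass in that fit. Hist1h1b had 4 to 15 fragments in Nrp-1+ iTreg and 1 to 10 in Nrp-1- iTreg, and its log2 difference was 0.10 (limma adjusted p = 0.84). Hist1h1e, Hist1h3a and Hist1h3g had log2 differences of 0.10, -0.04 and 0.31, with overlapping groups. Over the 40 genes 23 had a positive and 17 a negative log2 difference, with a median of 0.03.

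The summed FPKM of all 68 genes was 87.2, 76.7, 84.6 and 82.2 in Nrp-1+ iTreg and 73.4, 81.3, 74.0 and 82.6 in Nrp-1- iTreg, means of 82.7 ± 4.46 and 77.8 ± 4.81 with a ratio of 1.06. The groups overlapped. Counted as recovered fragments divided by relative depth, in which genes with long models weigh more, the total was 981 per Nrp-1+ and 1121 per Nrp-1- library, a ratio of 0.875, with every Nrp-1- library above every Nrp-1+ library, so the direction of the total turned with the measure. This total held movements in both directions. The 5 lower genes summed to 28.8 ± 1.99 FPKM in Nrp-1+ iTreg and 38.5 ± 0.729 in Nrp-1- iTreg, and the other 63 genes to 53.9 ± 3.36 and 39.4 ± 5.45. Because the 5 genes were chosen by the same values, this is a description with no test. They gave 71.6% of the histone fragments recovered over 55 genes but 41.9% of the summed FPKM. A fragment was worth 0.0202 to 0.0359 FPKM for Hist2h2be, Hist3h2a and Hist1h1c, which have long models. It was worth more, 0.0926 and 0.116 FPKM, for Hist1h2bc and Hist3h2ba.

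By class, the summed FPKM was 7.95 ± 0.898 against 8.82 ± 1.63 for H1 and 14.8 ± 1.68 against 13.4 ± 1.99 for H2a, in Nrp-1+ and Nrp-1- iTreg. It was 28.1 ± 2.42 against 30.3 ± 1.33 for H2b, 8.10 ± 1.55 against 6.21 ± 0.913 for H3, and 23.8 ± 2.09 against 19.1 ± 4.15 for H4. The groups overlapped in every class on the FPKM scale. The ratios ran from 0.902 for H1 to 1.30 for H3. In fragments divided by depth, again over the genes with fragment numbers, they were 0.881 for H1, 0.802 for H2a, 0.827 for H2b, 1.02 for H3 and 1.24 for H4, so that H2a changed direction, H3 was nearly equal and the H2b groups no longer overlapped. Within H2b, 2 genes were higher and 3 lower, and among the 5 H4 genes tested all log2 differences were positive but only that of Hist1h4i passed. The mean FPKM of Hist1h4b, 1.47 ± 0.621 in Nrp-1+ and 1.51 ± 1.24 in Nrp-1- iTreg, like that of Hist1h4f went against the sign of its log2 difference. With single libraries left out, the log2 differences of Hist1h4b and Hist1h4f reached -0.16 and -0.29.

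**Figure D3:**
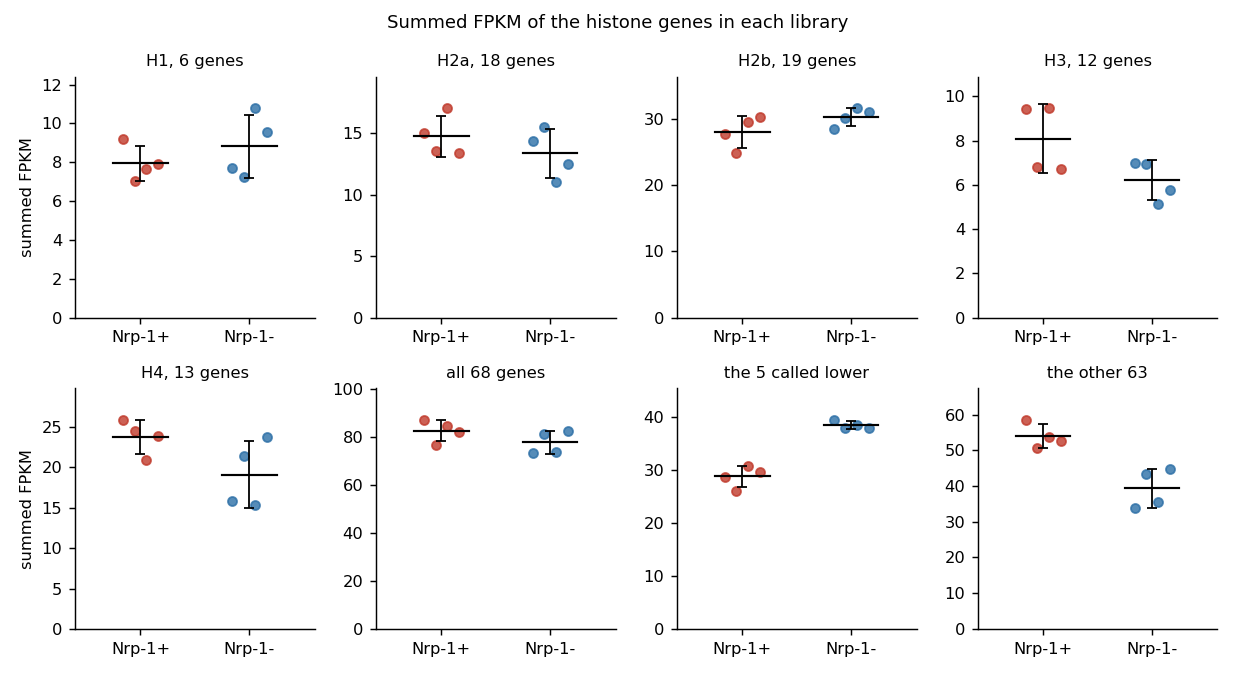
Summed FPKM per library (vertical axis, from 0) of the histone genes by class, of all 68, of the 5 called lower and of the other 63, with the mean and SD of 4 libraries. On the FPKM scale the groups overlap in all 5 classes and in the total (82.7 and 77.8), whereas the 5 lower genes and the other 63, which were set apart by these same values, move in opposite directions.

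By cluster, the 54 genes of chromosome 13 summed to 62.3 ± 3.39 FPKM in Nrp-1+ iTreg and 51.6 ± 3.90 in Nrp-1- iTreg, with no overlap between groups (a ratio of 1.21, and of 1.05 with overlap in fragments divided by depth), whereas the 10 genes of chromosome 3 summed to 6.22 ± 0.805 and 6.88 ± 0.790 with overlap. The 22 genes whose transcripts end within 100 bases of the stem-loop summed to 20.6 ± 2.24 and 13.5 ± 3.80 FPKM, on 398 and 246 fragments in all. Those running 100 bases or more past it summed to 45.4 ± 1.13 and 45.7 ± 2.82. The 8 with other sequence but no stem-loop, which include the lower genes Hist1h2bc and Hist2h2be, summed to 10.0 ± 0.427 and 12.8 ± 1.47, with every Nrp-1- library higher, and the sums of the 15 with coding sequence only overlapped between groups. In fragments divided by depth, every Nrp-1- library was higher for the transcripts running past the stem-loop (a ratio of 0.847), and those with no stem-loop overlapped. Among the 22 genes ending at the stem-loop, the lowest Nrp-1+ library, at 17.93 FPKM, was just above the highest Nrp-1- library, at 17.85. The ends are those of GENCODE M21, from which the authors' models differ for some genes, Hist1h4d, Hist1h2bj and Hist1h2bm among them. These sums were not tested.

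In 14 head-to-head pairs, mostly an H2a and an H2b gene, the starts lay within 1000 bases of each other on opposite strands. Both genes had a value above 0 in 9 pairs. Of these, 2 pairs had both log2 differences positive, 2 had both negative and 5 had opposite signs. The only pair with a mean over 1 FPKM across all libraries for both genes was Hist1h2ag and Hist1h2bj, with 269 bases between starts. Their levels were 2.04 ± 0.679 and 3.28 ± 1.34 FPKM in Nrp-1+ iTreg, against 1.21 ± 0.711 and 0.902 ± 0.576 in Nrp-1- iTreg. At Hist2h2ac and Hist2h2be, 238 bases apart, the log2 differences were 0.22 and -0.29.

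Promoter letters differed by class. RefSeq promoter windows on GRCm38.p6, from 250 bases before to 50 after the first listed start, were matched for 60 of the 68 genes, and motifs were searched on both strands. The octamer ATTTGCAT was found in 7 of 17 H2a and 6 of 16 H2b windows and in none of the other classes, against 1.75% of all 27025 promoters. Windows of head-to-head partners overlap, so 1 match can count for both. The TATA letters TATAAA were in 56.7% of histone windows and 14.2% of all, and CCAAT in 86.7% and 37.9%, but in only 3 of the 11 H4 windows. The letters AAACACA, known from H1 promoters, were in 5 of 6 H1 windows, in 2 H2a and 2 H2b windows, and in 7.14% of all promoters. The octamer was present for the higher genes Hist1h2ae and Hist1h2bm and for the lower gene Hist3h2a, and its letters were not in the windows of Hist1h2bj and Hist3h2ba. The lower genes Hist1h2bc and Hist2h2be had no matched window, so their promoter letters were not read.

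Near-identical copies limit single genes. For 34 of the 68 genes, fewer than 50% of the 50-base windows of the transcript were found in no other GENCODE M21 gene. Of the 11 genes listed at 0 everywhere, 7 had fewer than 10% unique windows, among them Hist1h2ao, Hist1h2ap, Hist1h2bq, Hist1h2br, Hist2h2aa1 and Hist2h3b, while Hist1h2aa and Hist1h2ba had over 60%. How reads that match several copies were counted is not given in the sources used here. The 10 genes that passed had 40.6% (Hist1h2bj) to 100% (Hist2h2be) unique windows in their GENCODE M21 transcripts. For Hist1h2bj and Hist1h2bm the authors' models differ from these. Hist1h2bl and Hist1h2bn, which have the same step and coding sequence only, had 17.2% and 13.6% unique windows.

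Genes that act on histone mRNA or on the histone proteins were described by list. Of 24 genes for histone mRNA transcription, 3′ processing and decay, 12 were higher in Nrp-1+ iTreg, 2 lower and 10 did not pass, with a median log2 difference of 0.12. Slbp, whose product binds the stem-loop, was at 125 ± 3.51 FPKM in Nrp-1+ iTreg and 81.5 ± 0.560 in Nrp-1- iTreg, without overlap (log2 difference 0.61, limma adjusted p = 4.81e-07). Npat, the activator of histone gene transcription at histone locus bodies, was at 7.80 ± 0.133 and 7.20 ± 0.334 FPKM (0.10, adjusted p = 0.0505) and passed under some alternatives, such as 0.0415 with size factors.

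The largest increases of that list on the log2(FPKM + 1) scale were those of the cyclin E genes, whose products act with CDK2 on NPAT. Ccne2 was at 7.45 ± 0.304 and 3.28 ± 0.352 FPKM (log2 difference 0.98) and Ccne1 at 31.5 ± 0.740 and 19.8 ± 0.419 (0.64). By the ratio of means, 2.10, Zfp473 lay between Ccne2 (2.27) and Ccne1 (1.59). It encodes a protein of the U7 snRNP, was at 1.97 ± 0.238 and 0.937 ± 0.120 FPKM (0.61) and was named after its values were seen. The decreases were small. Zcchc11, a terminal uridylyltransferase linked to histone mRNA decay, had a log2 difference of -0.12 (limma adjusted p = 0.0221), and Cpsf3, the endonuclease that cuts histone pre-mRNA, one of -0.08 (adjusted p = 0.0252). Neither held throughout: adjusted p reached 0.0583 for Zcchc11 without Nrp-1+ iTreg replicate 3, with the call also lost without Nrp-1+ replicate 4 or Nrp-1- replicate 1, 2 or 3. For Cpsf3 it was 0.0703 with the block, 0.0544 with quantile normalization and up to 0.0621 without Nrp-1+ replicate 1 or 2 or Nrp-1- replicate 2 or 4.

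Of 22 histone chaperones and carriers, 15 were higher, 3 lower and 4 did not pass, with a median log2 difference of 0.30. Asf1b, a chaperone of H3-H4, was at 92.6 ± 2.11 and 47.6 ± 2.65 FPKM (log2 difference 0.95), and Chaf1a, the large subunit of the CAF-1 complex that deposits H3-H4 behind the replication fork, at 25.6 ± 0.830 and 12.9 ± 0.381 (0.93). Hirip3 was at 12.0 ± 0.543 and 6.59 ± 0.732 (0.78). Daxx, a chaperone of the variant H3.3, was lower, at 30.6 ± 1.28 and 36.3 ± 1.17 FPKM (-0.24, limma adjusted p = 0.00106). Ipo4, an importin of H3-H4, and Nap1l4, a chaperone of H2A-H2B, passed at -0.19 and -0.09 (adjusted p 0.0429 and 0.0377) but not when single libraries were left out: without Nrp-1+ iTreg replicate 1 the adjusted p was 0.0826 and 0.0751. Ipo4 was also lost without Nrp-1+ replicate 2 or 3 or Nrp-1- replicate 2, 3 or 4, and Nap1l4 without Nrp-1+ replicate 2 or Nrp-1- replicate 1, 2 or 4. Nap1l4 was lost as well with the replicate block (0.0852), quantile normalization (0.118) and eBayes without trend (0.0552), and Ipo4 without a filter (0.075).

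**Figure D4:**
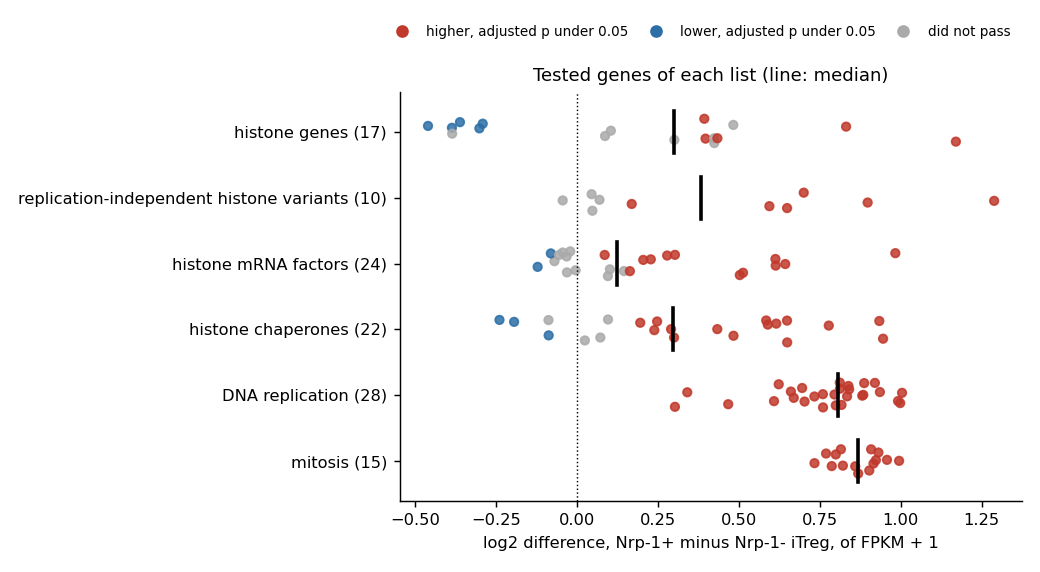
Log2 difference (horizontal axis, Nrp-1+ minus Nrp-1- iTreg, of FPKM + 1) of each tested gene, by list, with red for higher, blue for lower and grey for genes that did not pass, and a line at the median. The 17 histone genes spread from -0.46 to 1.17 on both sides of 0, whereas all 28 DNA replication and all 15 mitosis genes lie between 0.30 and 1.00.

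Of the 10 replication-independent histone variants tested, 6 were higher, none lower, and 4 did not pass, with a median log2 difference of 0.38. All 28 DNA replication genes and all 15 mitosis genes were higher, with medians of 0.81 and 0.87. Of the 17 histone genes tested, 5 were higher, 5 lower and 7 did not pass, where 20.9% of all genes tested were higher and 20% lower. In the same libraries every gene of these S phase and mitosis lists was higher in Nrp-1+ iTreg. The difference between the lists was not tested, and the histone genes were at lower FPKM: the 28 DNA replication genes summed to 1781 to 1799 FPKM per Nrp-1+ library. The part of polyA selection in the histone values was not tested.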

How the data were processed

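RNA sequencing libraries of Nrp-1+ iTreg (4) and Nrp-1- iTreg (4) were analysed, with groups and replicate numbers from the sample labels. Per the study's methods, the authors processed reads on the CLC Genomics Workbench and calculated FPKM with Cufflinks, and they deposited a single FPKM for each symbol in each library. The submitters' processing notes name GRCm38 and mm10, and the annotation and the handling of reads that match several genes are not given in the sources used here. Whether replicates came from separate cultures is not stated, so p-values measure the spread between these libraries.

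The deposited FPKM was not rescaled. Tests covered the 10467 of 23361 genes whose mean reached 1 FPKM, as log2(FPKM + 1), a pseudocount of 1, by limma 3.58.1 (eBayes with trend) in R 4.3.3 and Benjamini-Hochberg adjustment at 0.05; the fit was tested on simulated data. Genes under the limit were taken from a second fit over the 16289 genes above 0 in any library. Relative depth came from ratios of values under 0.3 FPKM, and fragment numbers from the step of each gene's values (tolerance 0.05 fragments); they were not used in tests. Read counts were not used here, and no count model was fitted. Stem-loops, polyA signals (last 40 bases) and unique 50-base windows were read from GENCODE M21 transcripts, and all 68 symbols matched. Python 3.11.15, numpy 2.4.6, pandas 2.3.3, scipy 1.17.1 and matplotlib 3.10.9 were used.

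The members, the gene lists and the tests were chosen with earlier results of these data known. Named genes were the 4 highest members of each class, all lower members past the threshold, and up to 6 of the largest non-overlapping increases past it. Only Hist1h2bj, Hist1h2bm and Hist1h3c were such increases. The rule also took Slbp, Npat, the 3 largest increases and decreases of the histone mRNA factors and of the chaperones, and Nrp1. Other genes given with values, among them Hist1h2ai, Hist2h3c1 and the paralogs and neighbours, were named after their values were seen where no part of that rule takes them. Alternatives changed the pseudocount (0.1, 0.5), dropped the filter or set it to 5 FPKM, and used size factors, quantile normalization, a replicate block, eBayes without trend, GC and length correction with and without the block, the exact Mann-Whitney test, and each library left out.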

Additional observations from a re-analysis of the deposited data

Results flagged for a closer look

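Among 54 groups of 4 libraries examined for the named members, the 5 class sums and the total, 1 held a library far from the others, where chance gives about 1 in 20 groups. Hist1h3e was at 1.34 FPKM in Nrp-1+ iTreg replicate 3 and at 0.925 to 0.935 FPKM in the other 3 Nrp-1+ libraries, which corresponds to 7 fragments against 4 in each of the others.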

How the results depend on the processing

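The 5 higher genes became 1 and the 5 lower genes 4 with the filter at 5 FPKM, which leaves 6 histone genes, and the higher genes became 3 with quantile normalization and 3 by the exact Mann-Whitney test, whose p was not adjusted and which here only counts groups that do not overlap. With the GC content and transcript length correction and the replicate block there were 3 higher and 3 lower. That fit took the call from Hist1h2bc, Hist1h2bm, Hist1h3c, Hist1h4i and Hist3h2ba and gave one to Hist1h2ak. The correction alone took it from Hist1h2bm. Quantile normalization took it from Hist1h2ae and Hist1h2bm. With single libraries left out, the counts ran from 2 to 5 higher and from 3 to 5 lower, and 5 of the 10 genes (Hist1h2bj, Hist1h3c, Hist3h2a, Hist3h2ba and Hist1h2bc) kept their call each time. The median log2 difference was 0.49 and 0.42 at pseudocounts of 0.1 and 0.5, 0.087 without a filter and -0.33 with the filter at 5 FPKM. It ran from 0.14 to 0.35 with libraries left out, the lowest without Nrp-1- iTreg replicate 1. Other causes were not tested. Without a filter 6 genes were higher and 4 lower, of which 4 and 3 were also called with it. The ratio of summed FPKM stayed between 1.03 and 1.09 under the scalings and with libraries left out.

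The replicate block gave 4 higher and 5 lower genes and took the call from Hist1h4i, and from Cpsf3 and Nap1l4 (adjusted p 0.0703 and 0.0852). Same-numbered libraries did not deviate together (correlations of -0.54, -0.02, 0.01 and -0.50). Whether the numbers pair the samples is not stated. These correlations cannot decide it, because the deviations also hold technical differences between libraries. Genes with 10 or fewer fragments in every library, 31 of the 55 with fragment numbers, allow little at this depth.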
